A study of Mus musculus with 8 samples.

Results

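The genes described here encode the nuclear pore complex and the receptors that carry cargo through it. They were chosen by symbol alone, as genes named Nup, Kpna, Kpnb, Ipo, Xpo, Tnpo or Ranbp, together with Ran, Rangap1, Rcc1, Tpr, Pom121 and Ndc1, and with Xpo5 left out. The rule matched 45 of the 8537 genes measured in both total and ribosome-bound mRNA of mouse oocytes. A further 5 genes (Ipo4, Tnpo3, Rangap1, Ranbp6 and Nupr1) matched in total mRNA only. Among the 45 genes, Ranbp9 and Ranbp10 match by name but are neither pore proteins nor transport receptors, and the same holds for Nupr1. The study asked whether translation of maternal mRNA differs between young and old oocytes. All libraries came from MII oocytes of C57BL/6 RiboTagF/F;Zp3-Cre mice, in which Cre, driven by the oocyte promoter of Zp3, switches the ribosomal protein RPL22 to an HA-tagged form. Young mice were 1 month old, and old mice were retired breeders of 12 to 15 months. Each female was primed with 5 IU PMSG, received 10 IU hCG 48 h later, and gave oocytes 13 h after hCG. There were 2 pools per age, each of 200 oocytes. A pool gave an input library from 10% of the lysate (total mRNA) and an HA library from the immunoprecipitate (ribosome-bound mRNA), so that the study holds 8 libraries. Because old mice were also retired breeders, age and breeding history cannot be told apart.

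The nuclear pore is built from ring-shaped scaffolds, anchored in the nuclear envelope, whose central channel is lined by nucleoporins rich in phenylalanine-glycine repeats. Importin alpha proteins recognise nuclear localisation signals and bind cargo to the carrier importin beta, whereas the exportins carry cargo outward. Direction is set by the GTPase Ran, which is loaded with GTP by Rcc1 on chromatin and discharged in the cytoplasm with the help of Rangap1 and Ranbp1. In an MII oocyte the envelope has broken down, so that these proteins are free in the cytoplasm, where Ran-GTP also takes part in spindle assembly. After fertilization they are used to build the pronuclei. Kpna7, an importin alpha expressed mainly in oocytes and early embryos, is needed for normal development of mouse embryos.

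The authors deposited TMM-normalized CPM (reads on a gene relative to the scaled library size), scaled within the 4 input and within the 4 HA libraries. The libraries held 37817382 to 60052814 reads on genes, and a count of 3 equalled 0.0388 to 0.111 CPM. These floors cover counting error only. In the input libraries, 11 of the 12 symbols listed as oocyte markers were measured, with a summed level of 10939 to 12522 CPM. H1foo was among them, and the symbol without a row was H1f8. Of 18 cumulus and granulosa cell markers, 12 were in the input table with a summed level of 164 to 334 CPM, and 4 (Cyp19a1, Nr5a2, Ptgs2 and Fshr) were in the HA table. The other cumulus and granulosa markers were absent from the HA table, as were all markers of oviduct epithelium, leukocytes and erythrocytes. In input, the oviduct marker Epcam had 57.6 CPM in old pool 1 and 0.058 to 3.29 CPM in the other libraries. The leukocyte marker C1qb had 38.3 CPM in old pool 1 and 1.73 to 9.33 CPM in the others. The remaining markers of these 3 lists were absent from the input table too. The TMM factors of the HA libraries differed with age, at 0.896 and 0.715 in old against 1.30 and 1.20 in young pools, so that other scalings are given beside age differences in HA. An exact permutation test of 2 pools against 2 can reach a two-sided p of 0.333 at best. The p-values below therefore come from limma, fitted across all genes on log2(CPM + 1) with Benjamini-Hochberg adjustment. The added 1 CPM makes differences of weakly expressed genes look smaller, and the p-values measure only the spread between pools of 1 experiment.

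The study follows the cytoplasmic polyadenylation element (CPE), the 3′-UTR motif to which CPEB1 binds. The motifs TTTTAT and TTTTAAT, which do not contain each other, were searched on the transcript strand, using for each gene its longest 3′-UTR in GENCODE. At least 1 motif was present in 36 of the 44 genes with an annotated 3′-UTR (81.8%), against 70.7% of all genes in both tables. Within the last 100 bases, 13 of 44 (29.5%) held a motif, against 21.5% of all genes. The median 3′-UTR length was 1193 bases in these genes and 1332 bases in all genes. Windows of 30 bases around the motif nearest to the transcript end are shown in transcript orientation, with the motif in capitals. The first 3 belong to genes whose HA level was above input in the test described below, the next 4 to genes with HA above input in each of 4 pools, and the last 2 to the classical import pair of importin alpha and beta. All positions are on GRCm38.
Nup98, chr7:102119479-102119508, minus strand: ttatgtaaaggtTTTTATtaaaaaatatat
Ranbp2, chr10:58494283-58494312, plus strand: tatgcaacttaTTTTAATtcctgttaagat
Ipo8, chr6:148770716-148770745, minus strand: aaatgcaggaacTTTTATgaatgtactgta
Ipo5, chr14:120947941-120947970, plus strand: tacaaaaatgagTTTTATgcataaatcaga
Nup35, chr2:80658873-80658902, plus strand: tccaaataaactttgtcaatTTTTATgtgc
Nup54, chr5:92415540-92415569, minus strand: aataaattgttaatttgtaaTTTTATgtaa
Xpo4, chr14:57577521-57577550, minus strand: aaatatgttttcactaaatatTTTTATtac
Kpna2, chr11:106996251-106996280, minus strand: tctctagttccaTTTTATtattattttttg
Kpnb1, chr11:97159714-97159743, minus strand: aataaagtccgctttatTTTTATtttcaac
The distance from the end of the motif to the annotated transcript end ran from 3 bases in Xpo4 to 93 bases in Nup98. For Kpna2, the transcript with the longest 3′-UTR ends inside the gene, whose own 3′ end lies at 106988629. Its motif is therefore near the end of that transcript only, although Kpna2 is counted among the 13 genes. A match is a description of these letters and not a measured CPEB1 site.

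Pore and transport mRNAs were abundant in total mRNA. Their median level was 105 to 127 CPM in the 4 input libraries, against 17.7 to 18.5 CPM for all genes of the input table, and 21 of 45 genes had at least 100 CPM in each input library. The 45 genes were also in the HA table, whereas the 10530 genes of the input table include genes found in input only. The 5 genes matched in total mRNA only had means of 1.07 to 14.7 CPM. Together the 45 genes took 1.17% to 1.25% of the reads in the input libraries. Per kilobase of the longest transcript, mean input levels spanned from 1.36 CPM per kb for Nup210, a membrane-anchored glycoprotein, to 451 CPM per kb for Nup214, a nucleoporin of the cytoplasmic face. Without correction for length, Nup214 alone carried 23.0% to 26.4% of the summed CPM of the 45 genes in input. The span of Nup214 overlaps 5 other annotated genes, and 25.2% of its exon bases lie in them.

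The subunits of a single ring differed in mRNA level. In the outer ring, or Y complex, the input means were 51.2 CPM per kb for Nup160, 44.7 for Nup107, 20.8 for Nup85 and 15.2 for Nup37. In the inner ring they ran from 7.37 CPM per kb for Nup205 and 8.48 for Nup155 to 55.3 for Nup93. The 3 nuclear basket genes were close together, from 52.6 for Nup50 to 78.2 CPM per kb for Tpr. Among the channel nucleoporins, Nup98, whose mRNA encodes a precursor cleaved into the repeat-bearing Nup98 and the Y complex subunit Nup96, had the highest level with 167 CPM per kb.

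Of the transport receptors, the importin alphas Kpna7, Kpna3 and Kpna2 had the highest input means, with 158, 155 and 93.6 CPM per kb, whereas Kpna6 had 27.9. The input values of Kpna7 were 112 and 229 CPM per kb in old and 188 and 103 in young pools, and Kpna3 had 195 and 163 CPM per kb in old pools against 121 and 140 in young pools. The levels of these 2 genes overlapped, so that their order is not set by these libraries, whereas Kpna6 was below each of the others in every input library. Of the 36-base stretches of Kpna2, 93.6% also occur in other genes, most of them in Gm10184, so that its reads could be split between copies and its level is uncertain. In the beta family, import receptors ran from 2.48 CPM per kb for Ipo11 to 85.8 for Ipo8, with Kpnb1 (importin beta) at 51.8. The 5 exportins fell within a narrow range, from 10.5 CPM per kb for Xpo4 to 16.1 for Xpo6, with Xpo1, the main protein exporter, at 13.6.

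Among the Ran cycle genes, Ran and Rangap1 were low. Ran itself had 2.83 and 5.14 CPM in old and 4.30 and 6.12 CPM in young input libraries, 18.6% of its 36-base stretches also occur in other genes, and its mean of 1.90 CPM per kb was among the lowest of the 45 genes. Ranbp1, Ranbp3 and Rcc1 had means of 13.2, 10.2 and 10.0 CPM per kb. Without correction for length they stood at percentiles 43.6, 70.1 and 54.1 of all genes in input. Rangap1, in the input table only, had 0.110 and 4.23 CPM in old and 0.435 and 2.29 CPM in young pools, and the import receptors Tnpo3 and Ranbp6, also in the input table only, stayed below 3 CPM in each library. The stress-response gene Nupr1 had 48.1 CPM in old pool 2 and 0.885 to 5.60 CPM in the other input libraries.

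**Figure D1:**
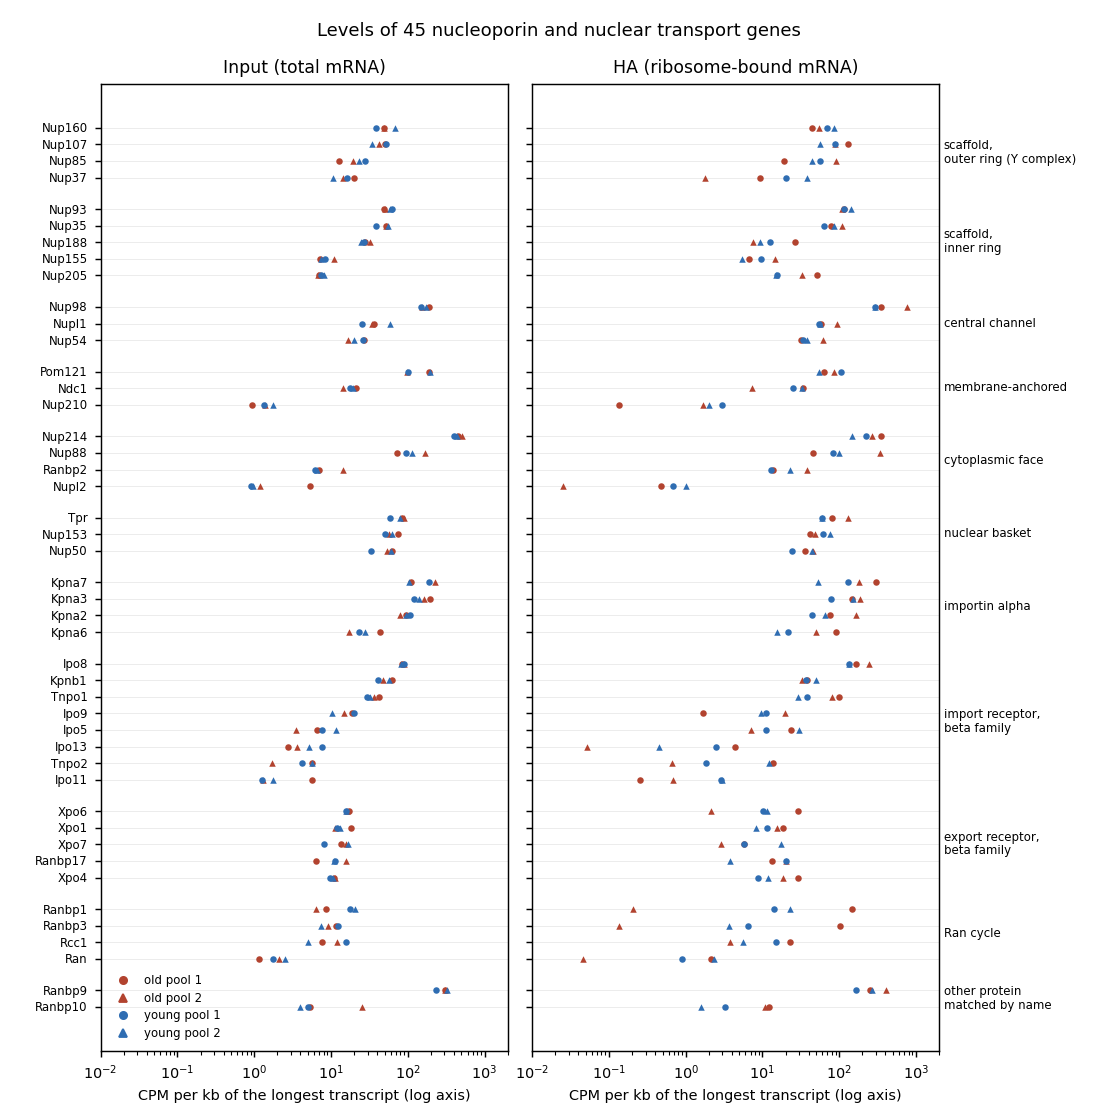
Level of each of the 45 genes in CPM per kb of the longest transcript (log axis) in the 4 input libraries (left) and the 4 HA libraries (right), grouped by role. Each point is 1 library, with old pools in red and young pools in blue, and the tables were normalized separately. In input most genes' points lie close together, apart from the single high old pools of Ranbp10, Ipo11 and Nupl2, and in HA old pool 2 lies far below old pool 1 for Ranbp3, Ranbp1, Ipo13 and Ran.

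The replicate pools agreed well in input and less well in old HA. Across these genes, Spearman's rho between replicates was 0.944 in old and 0.972 in young input, each over 50 genes, and 0.747 in old and 0.917 in young HA, each over 45 genes. Genes are not independent replicates, so that these values are descriptions. In old HA, 13 of 45 genes differed by over 4-fold in CPM + 1 between the pools, where 35% of all genes did so. In young HA only Tnpo2 and Ranbp17 did so (12.6% of all genes), in old input only Ranbp10 (13.9%), and in young input none of the 45 (5.51%). The widest gaps in old HA were those of the Ran cycle genes Ranbp3, with 21910 and 19 reads, and Ranbp1, with 6700 and 6 reads. In CPM these were 521 and 0.702 for Ranbp3, and 159 and 0.222 for Ranbp1. In young HA, the same 2 genes had 33.2 and 18.6 CPM, and 15.1 and 24.7 CPM. Ran (3 reads) and Nupl2 (2 reads) did not exceed 3 reads in HA of old pool 2. The gaps ran in both directions, since Nup88 and Ipo9 were higher in pool 2, at 138 and 1031 CPM for Nup88 and 10.6 and 123 CPM for Ipo9.

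**Figure D2:**
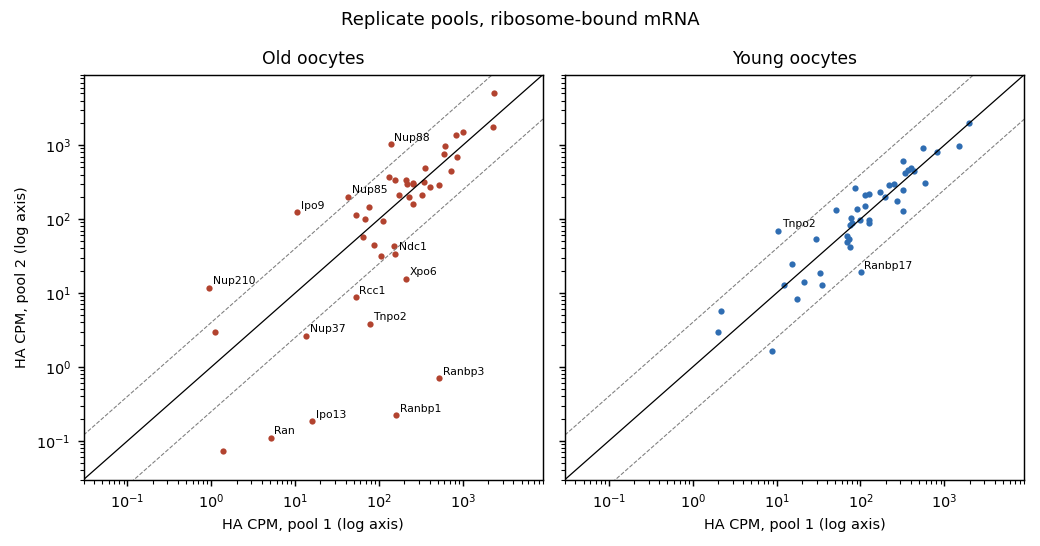
HA CPM of the 45 genes in replicate pool 1 (horizontal) against pool 2 (vertical), both on log axes, for old (left) and young (right) oocytes. The solid line marks equal values and the dashed lines a 4-fold difference, and the genes named are those over 4-fold apart in CPM + 1, 13 in old and 2 in young oocytes.

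HA was then compared with input within each pool. Because the deposited tables were normalized apart, reads were recovered from the CPM and scaled on 1 common TMM scale over the 8 libraries, with the pool as a block. Of the 45 genes, 6 were higher in HA and 0 were lower at an adjusted p under 0.05, where 3.43% of all genes were higher and 0.363% were lower. The 6 genes were Nup98, Ipo8, Nup93, Nup205, Ranbp2 and Nup107, of which the last 3 were named after their values were seen. Before adjustment, 14 of these genes had a p under 0.05 on the higher and 1 on the lower side (10.3% and 8.45% of all genes). The median log2 difference was 0.40, against -0.20 over all genes. When a minimum of 10 CPM in 2 libraries was required in both tables, 8 of 40 were higher (6.74% of all genes), and the medians were 0.43 and 0.02. HA exceeded input in each of the 4 pools for 16 of 45 genes and in none of the pools for 0 of 45, where 14.4% and 13.9% of all genes did so. These counts depend on the scale. The mean difference was positive for 32 and negative for 13 genes on the common scale (3671 and 4866 of all genes). On the separately normalized deposited values it was positive for 23 and negative for 22 (2600 and 5937). The reads taken by the 45 genes together also differed, at 1.33% to 1.39% of each HA library and 1.17% to 1.25% of each input library.

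Nup98 had the smallest p. On the common scale its input levels were 1109 and 898 CPM in old and 862 and 1004 CPM in young pools, and its HA levels were 2723 and 5935 CPM in old and 2228 and 2313 CPM in young pools. Every HA value was above every input value. The log2 difference was 1.65 (SE 0.27, limma adjusted p = 0.00514), and it passed the threshold in each of the 16 other tests and settings that gave a p. In HA, Nup98 took 15.3% to 27.3% of the summed CPM of the 45 genes, in place of 8.06% to 9.81% in input.

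Ipo8, an import receptor of the beta family, had 440 and 474 CPM in old and 469 and 423 CPM in young input, and 1184 and 1729 CPM in old and 926 and 948 CPM in young HA. Again the 2 fractions did not overlap, with a log2 difference of 1.36 (SE 0.26, limma adjusted p = 0.0113). Nup93, the inner ring subunit to which the channel nucleoporins attach, had 125 and 127 CPM in old and 161 and 149 CPM in young input. Its HA levels were 401 and 371 CPM in old and 391 and 496 CPM in young pools, and the log2 difference was 1.55 (SE 0.31, limma adjusted p = 0.0144). The pools were close to each other for both genes. Ipo8 passed in 13 of 16 other tests and settings and Nup93 in 13 of 16.

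Nup205, a large inner ring scaffold, showed the highest difference of the 45 genes. Its input levels were 39.4 and 38.3 CPM in old and 41.9 and 44.6 CPM in young pools, and its HA levels were 385 and 241 CPM in old and 114 and 113 CPM in young pools. HA was thus 1.32 to 3.26 higher on the log2 scale in the single pools, with a mean of 2.16 (SE 0.47, limma adjusted p = 0.0207). Ranbp2, the SUMO ligase that forms the cytoplasmic filaments of the pore, had 58.6 and 120 CPM in old and 52.5 and 54.7 CPM in young input, against 155 and 427 CPM in old and 143 and 259 CPM in young HA. The log2 difference was 1.72 (SE 0.39, limma adjusted p = 0.0233). Nup107, a Y complex subunit, had 91.1 to 140 CPM in input and 205 to 469 CPM in HA, with a log2 difference of 1.39 (SE 0.34, limma adjusted p = 0.0343). These 3 genes passed in 11, 11 and 8 of 16 other tests and settings, and none of the 6 genes changed direction in any of them. With the first old pool left out, only Nup98 of the 45 genes passed, where 74 of all 8537 genes were higher. Without the second old pool Nup98 and Nup93 passed, where 93 of all genes were higher. Within the old pools alone Nup98 and Ipo8 passed (1.75% of all genes), and within the young pools alone Nup98, Ipo8, Nup93 and Ranbp2 (2.69%).

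By role, the scaffold and channel groups had the highest medians. The 3 channel genes had log2 differences of 1.19 to 1.65, the 4 Y complex genes of 0.01 to 1.58 and the 5 inner ring genes of -0.74 to 2.16, with medians of 1.26, 1.05 and 1.17. Nup85 of the Y complex was at 1.58 and Nup54 of the channel at 1.26, with HA above input in 4 of 4 pools for both, although neither passed the adjustment (limma adjusted p = 0.0948 and 0.178). Nupl1 was at 1.19, and its exons are wholly covered by another annotated gene. Groups around the scaffold were lower, with medians of 0.29 for the nuclear basket, 0.25 for the membrane-anchored genes and -0.04 for the cytoplasmic face. Carriers were spread widely, with medians of 0.27 for the 4 importin alphas, 0.22 for the 8 import receptors of the beta family and 0.36 for the 5 exportins.

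The lowest p-values among genes with HA below input belonged to Nup214, Nup188 and Ipo13. Nup214 had 2618 and 2944 CPM in old and 2302 and 2485 CPM in young input, and 2699 and 2050 CPM in old and 1697 and 1145 CPM in young HA. HA was below input in 3 of 4 pools, with a log2 difference of -0.51 (SE 0.24, limma adjusted p = 0.265), which after quantile normalization was -1.17 (adjusted p = 0.00306). Nup214 and Nup98, the pair with the most reads among the 45 genes in input, thus lay on opposite sides of 0. Nup188, the inner ring partner of Nup93, had a log2 difference of -0.74 (SE 0.44, limma adjusted p = 0.38) and Ipo13 of -1.50 (SE 0.98, limma adjusted p = 0.423). The widest spread between pools was that of Ranbp3, with log2 differences of 3.55 and -4.54 in old pools against -0.52 and -0.58 in young pools.

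Kpna7 had log2 differences between HA and input of 1.85 and 0.07 in old pools but of -0.14 and -0.53 in young pools. The mean log2 difference was 0.31 (SE 0.37, limma adjusted p = 0.685), and for Kpna2 it was 0.16 (SE 0.41, adjusted p = 0.856). Kpnb1, the beta partner of both, was at 0.03 (SE 0.31, limma adjusted p = 0.965), and its 4 pools stayed within -0.26 and 0.25. Ran was at -0.35 (SE 0.84, limma adjusted p = 0.847). These 4 genes changed sign under quantile normalization.

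**Figure D3:**
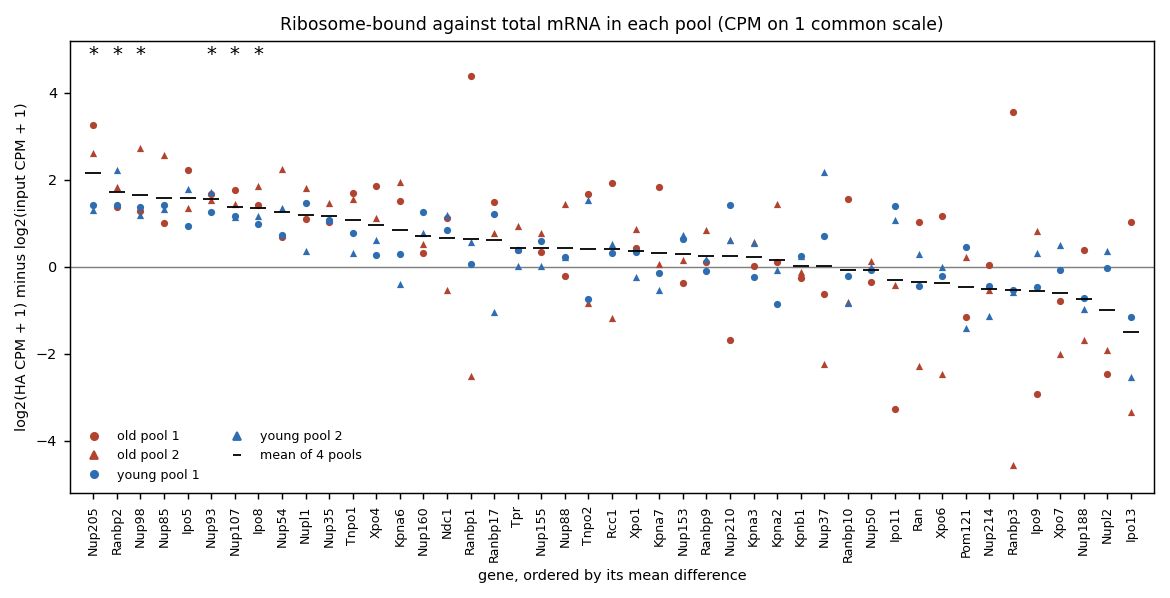
Difference between log2(HA CPM + 1) and log2(input CPM + 1) for each of the 45 genes (horizontal, ordered by the mean) in each pool, on the common scale. Red points are old and blue points young pools, the dash is the mean of 4 pools, and an asterisk marks the 6 genes with a limma adjusted p under 0.05. All 4 points lie above 0 for 16 genes and below 0 for none.

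The genes were also read by the position of the CPE. The 13 genes with a motif in the last 100 bases, which include Nup98, Ranbp2 and Ipo8 of the sequences above, had a median HA against input difference of 0.97 on the log2 scale, from -0.07 to 1.72. For the 23 genes with a motif farther from the end only, the median was 0.29, from -1.0 to 2.16, and for the 8 genes without one it was 0.13, from -1.50 to 1.58. The ranges overlapped, and 3, 1 and 2 of the 6 genes higher in HA belonged to these groups, with Nup205 in the second and Nup93 and Nup107 in the third. These are medians over few genes, given as a description.

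Age was compared next, first in total mRNA. None of the 45 genes passed the adjusted threshold in input, where 0.0095% of all genes were lower in old oocytes and 0% higher. Before adjustment, 0 genes had a p under 0.05 in limma, where 2.71% of all genes were higher and 3.48% lower. On the recovered reads, edgeR's quasi-likelihood test, its likelihood ratio test and DESeq2 each gave 0 adjusted calls among the 45 genes. At an unadjusted p under 0.05, these tests had 0, 1 and 1 of the 45 genes higher and 0 lower. Of all 10530 genes, 260, 333 and 503 were higher and 320, 434 and 466 lower in the same order. The median log2 difference, old minus young, was 0.10, against -0.03 over all genes, and it was -0.08 with each library scaled to the same sum. Both old pools lay above both young pools for 10 genes and below them for 6 (16.4% and 18.9% of all genes).

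The 3 smallest p-values among genes higher in old input were those of Kpna3, Ranbp10 and Ranbp2. Kpna3 had 792 and 663 CPM in old and 494 and 568 CPM in young input, with a log2 difference of 0.45 (SE 0.24, limma adjusted p = 0.79). The pools did not overlap, but the test did not separate the difference from the spread between pools. Ranbp10 was at 1.37 (SE 0.74, adjusted p = 0.79 in limma), which was 0.28 without old pool 2, whose level of 133 CPM stood above 20.9 to 28.7 CPM in the other pools. Ranbp2 was at 0.63 (SE 0.45, limma adjusted p = 0.866), and at 0.13 without old pool 2. On the lower side stood Ipo5, an importer of ribosomal proteins and histones, at -0.94 (SE 0.63, limma adjusted p = 0.843), Ranbp1 at -1.24 (SE 0.84, adjusted p = 0.843 in limma) and Nup85 at -0.66 (SE 0.50, limma adjusted p = 0.887). For Kpna2, Kpnb1 and Ran the log2 differences in input were -0.20 (SE 0.29), 0.18 (SE 0.30) and -0.34 (SE 0.99), with limma adjusted p-values of 0.957, 0.965 and 0.982.

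In ribosome-bound mRNA the spread between old pools was wide. No gene of the 45 passed the adjusted threshold in limma, where 0% of all genes passed in either direction. Before adjustment, 4 genes (Tnpo1, Kpna6, Nup205 and Kpna7) had a p under 0.05 on the higher side in old oocytes and 0 on the lower side in limma, where 4.28% of all genes were higher and 10.5% lower. With libraries scaled to the same sum, limma had 0 higher and 2 lower (112 and 1279 of all genes). After quantile normalization it had 1 and 3 (253 and 230), and with the median log2 ratio 4 and 0 (500 and 835). The tests on recovered reads gave 0 adjusted calls each, with 4 genes at an unadjusted p under 0.05 in edgeR's quasi-likelihood test, 2 in its likelihood ratio test and 5 in DESeq2, all on the higher side. Old pools lay above young pools without overlap for 13 genes and below them for 8 (17.2% and 24.7% of all genes). The median log2 difference was 0.30, against -0.14 over all genes. It was -0.31 against -0.68 with each library scaled to the same sum and -0.07 against -0.05 after quantile normalization. With scaling by the median log2 ratio it was 0.51 against 0.04. Between 12 and 28 of the 45 genes were positive over the scalings, with 26 on the deposited scale. The summed markers of oocytes and of granulosa cells did not overlap between ages in HA. The 11 oocyte markers measured had a summed level of 14711 and 19875 CPM in old against 13531 and 12596 CPM in young pools, with 8 of 11 positive and a median log2 difference of 0.40. The 4 of 18 granulosa cell markers measured had a summed level of 144 and 88.8 CPM in old against 199 and 207 CPM in young pools. Most of this sum was Cyp19a1, with 80.4 and 69.7 CPM in old and 142 and 174 CPM in young pools. In input, Cyp19a1 had 13.5 and 37.4 CPM in old and 47.4 and 56.1 CPM in young pools. Ptgs2 was also lower in old pools without overlap, at 0.119 and 0.111 CPM against 3.68 and 4.72 CPM, whereas Nr5a2 and Fshr overlapped between ages. The part of these markers in the differences was not tested. Because the tag is made in oocytes only, these HA sums do not count granulosa cells. In total mRNA of such pools, fewer cells of a type and less RNA per cell cannot be told apart.

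The highest log2 difference of the 45 genes was that of Ranbp10, a gene matched by name only, at 2.23 (SE 1.03, limma adjusted p = 0.382), with 63.9 and 57.0 CPM in old and 17.3 and 8.30 CPM in young HA. Next came the importin alphas Kpna6 and Kpna7. Kpna6, a general importin alpha, had 525 and 286 CPM in old and 125 and 88.0 CPM in young HA, without overlap. The log2 difference was 1.88 (SE 0.54, limma adjusted p = 0.297), and in input it was 0.10 (SE 0.45, limma adjusted p = 0.984). Kpna7 had 729.8 and 445 CPM in old and 319 and 129 CPM in young HA, and the old pools were again above the young ones. Its log2 difference was 1.49 (SE 0.58, limma adjusted p = 0.315). Input of Kpna7 showed no such order, with 274 and 563 CPM in old and 461 and 253 CPM in young pools and a log2 difference of 0.20 (SE 0.41, limma adjusted p = 0.975). Kpna2 had 156 and 339 CPM in old and 90.7 and 136 CPM in young HA, with a log2 difference of 1.04 (SE 0.60, limma adjusted p = 0.521). For Kpna3, the old HA values of 595 and 749.6 CPM overlapped the young ones of 322 and 611 CPM. All 4 importin alphas were thus positive on the deposited scale, from 0.59 to 1.88, whereas Kpna3 was -0.05 with libraries scaled to the same sum and -0.07 after quantile normalization. Kpna6, Kpna7 and Kpna2 stayed positive under the 4 scalings, at 1.24 to 2.09, 0.85 to 1.70 and 0.41 to 1.25.

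**Figure D4:**
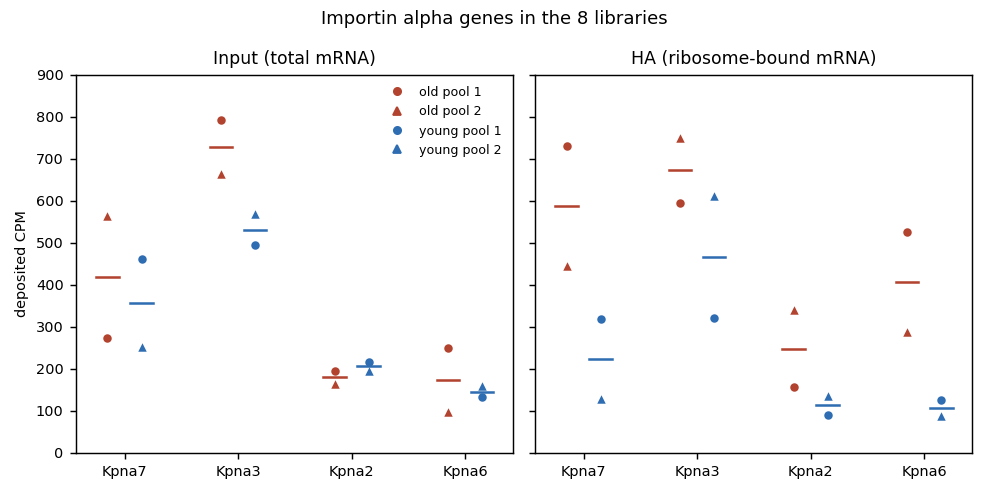
Deposited CPM of the 4 importin alpha genes in input (left) and HA (right), on a linear axis that starts at 0. Each point is 1 pool, red for old and blue for young, and the line is the mean of 2 pools, with no test passed. In HA the old pools lie above the young pools for Kpna7, Kpna2 and Kpna6, and in input they do so for Kpna3 only.

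Tnpo1, or transportin, which imports RNA-binding proteins, had 851 and 685 CPM in old and 325 and 249 CPM in young HA. The pools did not overlap, and the log2 difference was 1.42 (SE 0.41, limma adjusted p = 0.297), with 0.35 in input (SE 0.26, limma adjusted p = 0.888). For Nup205, the HA values of 328 and 208 CPM in old and 99.6 and 95.7 CPM in young pools gave a log2 difference of 1.41 (SE 0.53, limma adjusted p = 0.313), while its input values of 43.9 to 51.6 CPM were almost level. Both genes stayed positive under the 4 scalings, at 0.75 to 1.63 for Tnpo1 and 0.78 to 1.62 for Nup205. On the lower side, the Y complex gene Nup37 had 13.6 and 2.62 CPM in old and 29.7 and 54.4 CPM in young HA, a log2 difference of -2.51 (SE 1.38, limma adjusted p = 0.487). The exportin Xpo7, with 86.4 and 44.0 CPM in old and 87.2 and 265 CPM in young HA, was at -1.29 (SE 0.77, limma adjusted p = 0.545). Without single pools Xpo7 ran from -2.08 to -0.49. Ipo11, which imports ubiquitin-conjugating enzymes, had 1.09 and 2.99 CPM in old and 12.3 and 13.0 CPM in young HA and was at -2.24 (SE 1.38, limma adjusted p = 0.562). None of the pools overlapped for these 3 genes, but their levels were low or their replicates far apart. Kpnb1 was at -0.26 (SE 0.47, limma adjusted p = 0.898) and Ran at -0.83 (SE 1.20, limma adjusted p = 0.861). Nup88 was at 0.47 (SE 0.89, limma adjusted p = 0.907), and its old value of 1031 CPM in pool 2 was far from the 138 CPM of old pool 1.

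**Figure D5:**
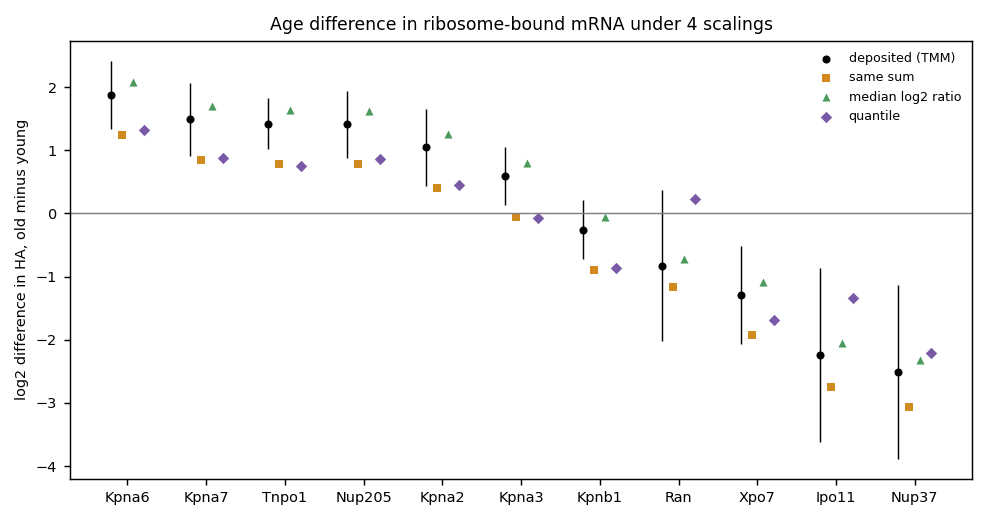
Log2 difference in HA between old and young oocytes for 11 genes under 4 scalings, on log2(CPM + 1). Bars are the SE of limma on the deposited scale, which is drawn as black points. Kpna3 lies below 0 with libraries scaled to the same sum or by quantiles, Ran lies above 0 with quantiles only, and the other 9 genes keep their side of 0.

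Translation efficiency (TE), the HA level of a pool over its input level, was compared between ages on the deposited scales. None of the 45 genes passed the adjusted threshold (0% of all genes), and 1 gene was higher at an unadjusted p under 0.05 and 0 lower in limma, the only tool run on TE, where 2.98% of all genes were higher and 3.51% lower. That gene was Kpna6, with a log2 TE difference of 1.77 (SE 0.65, limma adjusted p = 0.739). With libraries scaled to the same sum, the unadjusted counts in limma were 0 higher and 2 lower (109 and 468 of 8537 genes). Quantile normalization also gave 0 and 2 (214 and 246), and the median log2 ratio gave 3 and 0 (355 and 241). Old pools lay above young pools for 9 genes and below for 7 (17.2% and 20.4% of all genes). Next to Kpna6 stood Tnpo1 at 1.08 (SE 0.50) and Nup205 at 1.57 (SE 0.80), and on the lower side Xpo7 at -1.61 (SE 0.74), Nup37 at -2.85 (SE 1.45) and Ipo11 at -3.03 (SE 1.68), each with a limma adjusted p of 0.739. Kpna7 was at 1.29 (SE 0.66) and Kpna2 at 1.24 (SE 0.72), again with a limma adjusted p of 0.739. Without single pools these ran from 0.41 to 2.16 for Kpna7 and from 0.56 to 1.93 for Kpna2. Kpnb1 was at -0.44 (SE 0.54, limma adjusted p = 0.884) and Ran at -0.48 (SE 1.57, limma adjusted p = 0.959). The median over the 45 genes was 0.25, against -0.10 over all genes, and it turned to -0.19 with libraries scaled to the same sum and to -0.05 after quantile normalization. By role, all 5 inner ring genes and all 4 importin alphas were positive on the deposited scale. With libraries scaled to the same sum or by quantiles, Nup205, Kpna2, Kpna6 and Kpna7 kept this sign, whereas Kpna3 and the other 4 inner ring genes turned negative.

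Genes with the pattern closest to Kpna7 were sought over the 8 values of log2(CPM + 1), centred within each table, among 3289 genes with at least 10 CPM in each library. The 5 closest were Tcl1b2, Klf11, Kdm5c, Rrn3 and Eed, with root mean square distances of 0.17 to 0.22. Tcl1b2, of an oocyte-expressed gene cluster, had 80.9 and 175 CPM in old and 162 and 105 CPM in young input, and 421 and 269 CPM in old and 207 and 98.0 CPM in young HA. Among the pore and transport genes, Nup214 (rank 120, distance 0.46) and Tnpo1 (rank 138, distance 0.47) were the closest. All of these values come from the same 8 libraries.

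Other pore and transport genes outside the symbol rule were read as a fixed list of 20. Of these, 18 were in the input table and 16 in both. In HA against input, 1 of 16 passed on the higher side and 0 on the lower, with a median of 0.73. It was Ahctf1, or Elys, which recruits the Y complex to chromatin when pores are rebuilt, with 294 and 194 CPM in old and 242 and 288 CPM in young input, and 851 and 1486 CPM in old and 865 and 876 CPM in young HA. Its log2 difference was 1.97 (SE 0.30, limma adjusted p = 0.00376), and Ddx19a, the helicase that releases exported mRNA at the pore, was next at 0.90 (SE 0.29, adjusted p = 0.115 in limma). No gene of the list passed with age in limma. The smallest p-values were those of Nutf2, the importer of Ran, and Gle1, the activator of Ddx19, in input (log2 differences 2.48 and 0.74, limma adjusted p = 0.778 for both), and of Aaas, a nucleoporin, and Snupn, the import adaptor of spliceosomal RNA, in HA (1.97 and -4.33, limma adjusted p = 0.297 for both). In TE they were those of Aaas and of Cse1l, the exporter that returns importin alpha to the cytoplasm (2.62 and 1.96, limma adjusted p = 0.739 for both). Of 17 genes of the nuclear lamina and inner nuclear membrane, 14 were in input and 12 in both tables, and none passed in any of the 4 comparisons. Their median HA against input difference was 0.59, with the lowest p for Tor1aip1 at 1.32 (SE 0.44, limma adjusted p = 0.123).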

How the data were processed

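The 8 libraries comprised input and HA libraries of 2 old and 2 young pools. The authors trimmed reads with Trimmomatic 0.36, aligned them to mm10 with HISAT2 and counted them per gene without strand in HTSeq. After a filter on low values they deposited a signal value per gene, TMM-normalized CPM, separately for input and HA. The study states a minimum of 10 CPM in 2 libraries, but the lowest second-highest value of a deposited gene was 0.885 CPM in input and 0.788 CPM in HA. No sample column was left out.

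Whole reads were recovered from the deposited signal for 100% of values (tolerance 0.001 reads). Input, HA and TE were compared between ages with limma 3.58.1 in R 4.3.3 (trended variance, 2 pools per group, log2(CPM + 1), Benjamini-Hochberg over all genes, threshold 0.05). For HA against input, the 8 libraries were put on 1 TMM scale with the pool as a block, since both libraries of a pool came from the same lysate. This pairing comes from the design. The correlation of the 2 libraries' deviations from the group means was 0.00602 for the old and 0.107 for the young pools. As alternatives, the recovered reads were tested with edgeR 4.0.16 and DESeq2 1.42.0. Over all genes, the quasi-likelihood test of edgeR called 0 genes with age in input or HA, and 172 higher and 8 lower in HA than in input. Its likelihood ratio test, the kind the study used, called 19 higher and 31 lower with age in input and 38 higher and 257 lower in HA. In HA against input it called 298 higher and 64 lower. DESeq2 called 562 higher and 516 lower in HA than in input, and with age 57 higher and 57 lower in input and 165 higher and 343 lower in HA. Other alternatives were the pseudocount, a filter, the scaling, the replicate number as a block and leaving out each pool.

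The genes and lists were chosen with earlier results of these data known. Genes named from a test were the 3 with the smallest p in each direction, with Kpna7, Kpna2, Kpnb1 and Ran always given. Test values of other genes (Nup205, Ranbp2, Nup107, Nup85, Nup54, Nupl1 and Tor1aip1 in HA against input, Kpna3, Nup88 and Ranbp10 in HA) were added after they were seen. The genes closest to Kpna7 were the 5 with the smallest distance. CPE motifs, exon overlaps and shared 36-base stretches were taken from GENCODE M21, which held 99.8% of the input and 99.7% of the HA gene identifiers, and not from the M11 annotation used by the authors. The tests were checked on simulated data with 200 changed genes. At a log2 change of 4, limma recovered 144 in input, 99 in HA, 64 in TE and 154 in HA against input, and at a log2 change of 2 it recovered 65, 7, 0 and 48. Unchanged genes called in HA against input numbered 41 beside the 154 and 17 beside the 48, a higher share than the threshold of 0.05 allows, which bears on the genes called in that comparison. The other comparisons gave 1 to 3 such calls each. With 0 changed genes, it called 0 in input, 1 in HA, 0 in TE and 6 of 8537 in HA against input, where 7.71% had an unadjusted p under 0.05.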

Additional observations from a re-analysis of the deposited data

Results flagged for a closer look

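On the common scale of the 8 libraries, 5 genes had HA on one side of input in both old pools and on the other side in both young pools. Kpna7 and Kpna2 had HA above input in both old and below it in both young pools, a pattern of 4.13% of all genes. Nup37, Ipo11 and Kpnb1 had HA below input in both old and above it in both young pools, as 5.31% of all genes did. The pattern depended on the scale. On the separately normalized deposited values it held for Nup37 and Ipo11 but not for Kpna7, Kpna2 and Kpnb1, and it appeared for Kpna6, Xpo1 and Nup153 instead (4.98% of all genes in the direction of Kpna6 and Xpo1 and 3.33% in the other). The log2 difference in TE, old minus young on the deposited values, was 1.2854 for Kpna7, 1.2438 for Kpna2, -2.8458 for Nup37, -3.0344 for Ipo11 and -0.4407 for Kpnb1. None of them passed in limma, with an adjusted p of 0.884 for Kpnb1 and 0.739 for the other 4. With 2 pools per age, no test for single samples far from the rest could be made.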

How the results depend on the processing

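Counts of genes past the threshold with age stayed at 0 in input, HA and TE in each setting that kept 2 pools per age. A fit without a single pool leaves 1 pool at that age, so that its count is not given. In HA against input the count of 6 was 10 in DESeq2, 2 within the old pools alone and 1 to 4 without single pools. Of all 8537 genes, 562, 149 and 74 to 213 were higher in these settings, and 293 in the main test. The within-age and gene-centred settings were chosen after seeing the data.

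The medians with age depended on the scaling. With libraries scaled to the same sum they were -0.0844 in input, -0.3093 in HA and -0.1888 in TE. Quantile normalization gave -0.0011, -0.074 and -0.0518, and scaling by the median log2 ratio gave 0.1244 in input, 0.5132 in HA and 0.4387 in TE. Without single pools they ran from -0.0167 to 0.1666 in input and from 0.1999 to 0.5588 in HA. For HA against input the separately normalized deposited values gave a median of 0.0039, against -0.56 over all genes.

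Among log2 differences that changed sign, none of which passed the threshold, Kpnb1 in input was -0.0098 with the same sum and -0.0562 to 0.4145 without single pools, and Kpna7 in input was -0.3158 to 0.7189. Without single pools, Kpna7 in HA kept its sign at 0.8345 to 2.1393 and Kpna2 in HA at 0.485 to 1.6037. Ran was 0.2354 in HA and 0.3217 in TE after quantile normalization, and -2.0561 to 0.403 and -2.0545 to 1.0845 without single pools. In HA against input, Kpna7 was -0.107 on the deposited values, -0.2586 with quantiles, -0.3315 in young pools alone and -0.1986 to 0.5931 without single pools. In the same order Kpna2 was -0.2579, -0.2815, -0.4626 and -0.2701 to 0.5005. Kpnb1 was -0.3881, -0.4534, -0.1867 in old pools alone and -0.042 to 0.1286, and Ran was 0.4333 with quantiles and -0.8083 to 0.2924. The cause was not tested.

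With the replicate number as a block the age medians were 0.1038 in input, 0.3049 in HA and 0.2515 in TE, as without it, and 0 of the genes passed in each. Samples of different ages share only a number, with a correlation of deviations of 0.0269 in input and 0.0786 in HA. Without the pool block, HA against input gave 6 genes, where 270 of all 8537 genes were higher and 23 lower.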
